A study of Mus musculus with 12 samples.

Results

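The genes described here are 35 chaperones, folding enzymes, degradation factors, sensors and outputs of the unfolded protein response of the endoplasmic reticulum (ER), chosen by name from the 14852 genes of an expression table. All 35 were found in the table, and all 35 had at least 1 FPKM (fragments normalised for gene length and library size) in 3 or more libraries, the filter for testing. They were split by known biology into an ATF6/XBP1 arm of 26 genes and an ATF4 arm of 9 genes. The cells were ID8, an established mouse line derived from ovarian surface epithelium and used as a model of ovarian cancer. The series compared cisplatin, a platinum drug that crosslinks DNA, with control, and asked about ac4C (N4-acetylcytidine, an RNA modification written by NAT10) under the drug. It held 12 libraries in 4 groups of 3: cisplatin IP, cisplatin input, control IP and control input. IP is RNA fragments pulled down with an antibody against ac4C. Input is the same fragmented RNA, depleted of ribosomal RNA, before the pull-down. Neither the dose nor the exposure time is given in the sources used here, nor what the control cells received. Nothing in the labels says whether replicates came from separate cultures, and the p-values therefore reflect library-to-library spread that may be technical.

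The unfolded protein response is run by 3 sensors in the ER membrane. IRE1, encoded by Ern1, splices Xbp1 mRNA so that it encodes an active transcription factor, and ATF6 is cut in the Golgi to release another, and both raise ER chaperones and the machinery that sends misfolded proteins to the proteasome. PERK, encoded by Eif2ak3, phosphorylates the translation factor eIF2α, as do other kinases under other stresses, and this favours translation of the factor ATF4, which raises CHOP, amino acid genes and the eIF2α phosphatase subunit GADD34. FPKM of a gene sums its isoforms, so spliced and unspliced Xbp1 were not separated, and RNA levels do not report on translation, cleavage or phosphorylation.

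Input libraries held 20682920 to 30159427 fragments, as recovered from the FPKM values. Correlations of log2 levels over genes were 0.989 to 0.996 within a treatment and 0.833 to 0.847 between treatments. Of the 11449 genes tested, 40.1% were higher and 41.1% were lower after cisplatin, so a call by itself did not set a gene apart. Cdkn1a, the p53 target used as a check of the treatment, had 86.7, 91.5 and 82.3 FPKM in cisplatin libraries, against 3.39, 3.32 and 2.89 FPKM in control libraries. Of 12 markers of ovarian surface epithelium and mesothelium, 11 had at least 1 FPKM in every input library and Krt7 was at or near 0; their summed level was 3055 to 3400 FPKM in cisplatin libraries and 2255 to 2287 FPKM in control libraries. The markers did not move as one, since Krt8, Krt18, Krt19, Msln and Upk1b rose and Wt1, Gpm6a, Cdh2, Gata6, Upk3b and Lgals7 fell (Wt1 to 27.5% of control). The 6 leukocyte markers and 4 of 5 endothelial markers were not listed in the table, and the endothelial marker listed, Tek, had 2.55 to 2.81 FPKM in cisplatin libraries and 0.723 to 0.931 FPKM in control libraries. FPKM is a share of each library, so fewer cells of a kind and less RNA per cell cannot be told apart.

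After cisplatin, 25 of the 35 genes were lower and 8 were higher, while Calr and Atf4 did not pass the test (limma on log2(FPKM + 1), Benjamini-Hochberg adjusted p over all genes tested, threshold 0.05). In the ATF6/XBP1 arm, 22 of 26 genes fell and 3 rose, namely Dnajb9, Ern1 and Canx (the last negative with a common sum or quantile normalization), with a median log2 change (cisplatin minus control) of -0.61. In the ATF4 arm, 5 of 9 genes rose and 3 fell, with a median log2 change of 0.12. That median is the value of Eif2ak3, which was among the genes that rose. The median of the ATF4 arm was 0.024 with libraries rescaled to a common sum and 0.065 with voom. With a common sum, voom, a block for the replicate number or the authors' values, 4 rose and 3 fell. With quantile normalization 4 rose and 4 fell. The median over all genes tested was -0.0028. The difference between the arms was not tested, since the genes were chosen with earlier results of these data known.

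The arms also stood apart as sums of the FPKM as deposited. The FPKM values of the 26 ATF6/XBP1 genes summed to 2349, 2272 and 2438 in cisplatin libraries, against 3084, 3079 and 3079 in control libraries. Those of the 9 ATF4 genes summed to 929.9, 922 and 880.4 in cisplatin libraries, against 828, 834 and 833 in control libraries. Neither sum overlapped between treatments, and they lay on opposite sides in the FPKM as deposited. The sums were not recomputed under other normalizations, so whether the ATF4 sums stay apart under them is not shown. The log2 change of Atf4 turned negative with libraries rescaled to a common sum, with voom and with quantile normalization. Atf4 made up most of the ATF4 sum in every library and Calr, Canx, P4hb and Hspa5 most of the ATF6/XBP1 sum, although Calr and Canx did not fall in this fit (both were lower with quantile normalization).

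On the log2(FPKM + 1) scale, only Ddit4 rose by at least 2-fold, and 6 genes fell by at least 2-fold: Sdf2l1, Herpud1, Sel1l, Syvn1, Derl2 and Xbp1. By the ratio of mean FPKM, Derl1 also fell that far, to 49.6% of control. Changes past the test and of that size on the log2 scale were found for 10.8% of all tested genes upward and 13.1% downward. The 3 cisplatin values and the 3 control values did not overlap for 33 of the 35 genes, against 84.2% of all genes tested.

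**Figure D1:**
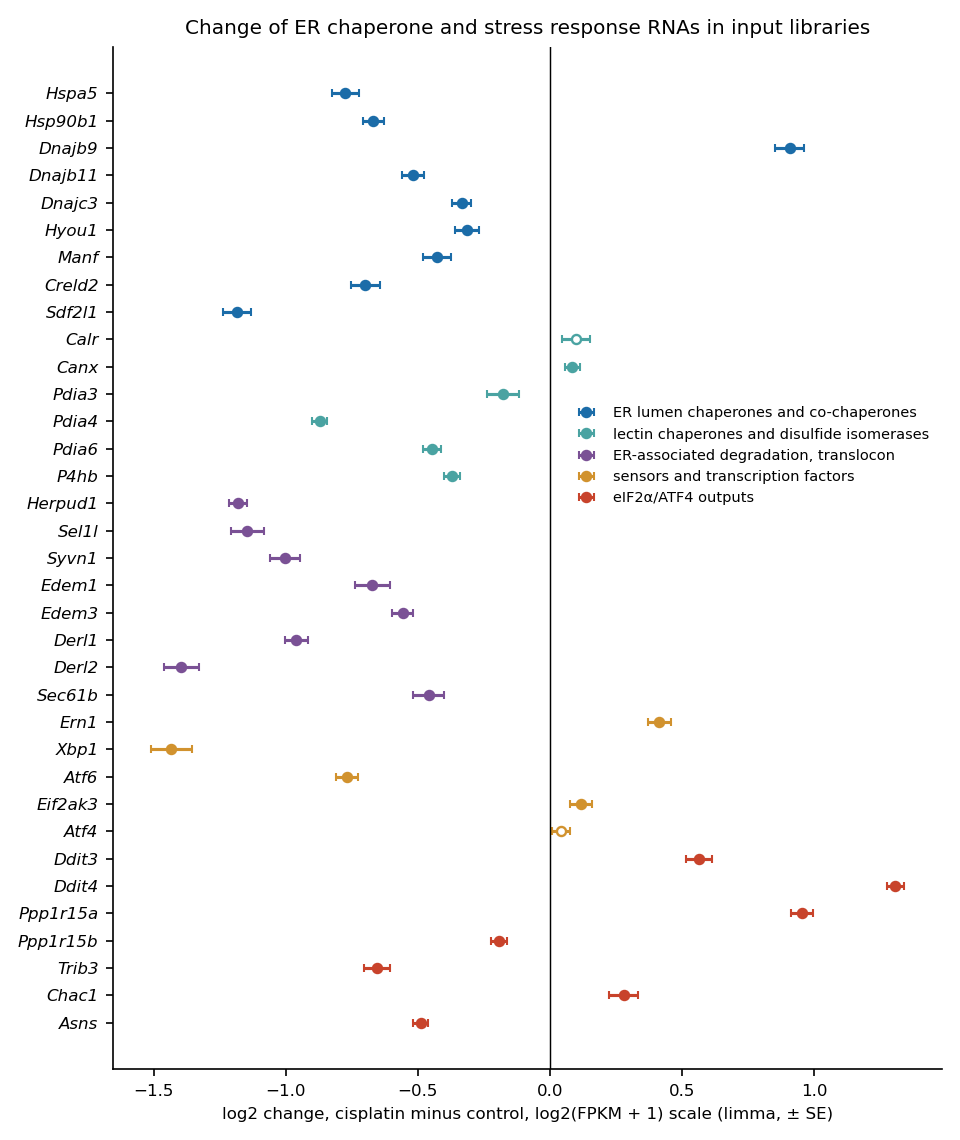
Log2 change of each of the 35 genes in input RNA, cisplatin minus control on the log2(FPKM + 1) scale (x axis), with the standard error from limma as bars, n = 3 libraries a group; colours mark the role and white centres the 2 genes that did not pass the test. All 8 degradation and translocon genes lie left of 0, and the rightmost genes are Ddit4, Ppp1r15a and Dnajb9.

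Among the chaperones of the ER lumen, 8 of 9 were lower after cisplatin and Dnajb9 was higher, with a median log2 change of -0.52. Hspa5 encodes BiP, the main Hsp70 chaperone of the ER lumen, which also holds the sensors inactive, and lies at chr2:34772090-34776529 in GRCm38. It had 300.1, 288 and 329 FPKM in cisplatin libraries, against 531, 519.7 and 518 FPKM in control libraries. Every cisplatin library was below every control library, at 58.5% of the control mean (log2 change -0.77 ± 0.051 SE, adjusted p = 5.72e-06). Hsp90b1, which encodes the Hsp90 of the ER, GRP94, had 150.45, 147 and 162 FPKM in cisplatin libraries, against 244, 244 and 243 FPKM in control libraries. The groups did not overlap (log2 change -0.67, adjusted p = 3.79e-06).

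Sdf2l1, a partner of the co-chaperone ERdj3, changed more than any other lumen chaperone. It had 32.1, 34.3 and 29.5 FPKM in cisplatin libraries, against 73.8, 73.4 and 74.2 FPKM in control libraries. The cisplatin mean was 43.3% of the control mean (log2 change -1.18, adjusted p = 9.01e-07). Creld2, an ER-stress-inducible protein with disulfide isomerase activity, averaged 35.9 ± 2.75 FPKM after cisplatin and 58.9 ± 1.08 FPKM in control (SD, n = 3, as for all means that follow). Its log2 change of -0.70 was close in size to those of Hspa5 and Hsp90b1.

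The remaining co-chaperones of BiP fell by less. Dnajb11, which encodes ERdj3, had a log2 change of -0.52, and Dnajc3, which encodes p58IPK, had one of -0.33. Manf, a secreted protein that binds BiP, averaged 61.7 ± 4.43 FPKM after cisplatin and 83.2 ± 2.04 FPKM in control, and Hyou1, the nucleotide exchange factor GRP170, averaged 43.1 ± 2.52 FPKM after cisplatin and 53.7 ± 0.669 FPKM in control. Hyou1 had the smallest change of the 9 (log2 change -0.31 ± 0.045 SE, adjusted p = 0.00041), and its 3 cisplatin values were still below its 3 control values.

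Dnajb9 went the other way. It encodes ERdj4, a co-chaperone of BiP that binds IRE1 and is a known target of XBP1. Its level was 18.8, 19.1 and 21.3 FPKM in cisplatin libraries, against 9.97, 9.82 and 10.3 FPKM in control libraries. The groups did not overlap and the cisplatin mean was 1.96 times the control mean (log2 change 0.91 ± 0.055 SE, adjusted p = 3.8e-06).

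**Figure D2:**
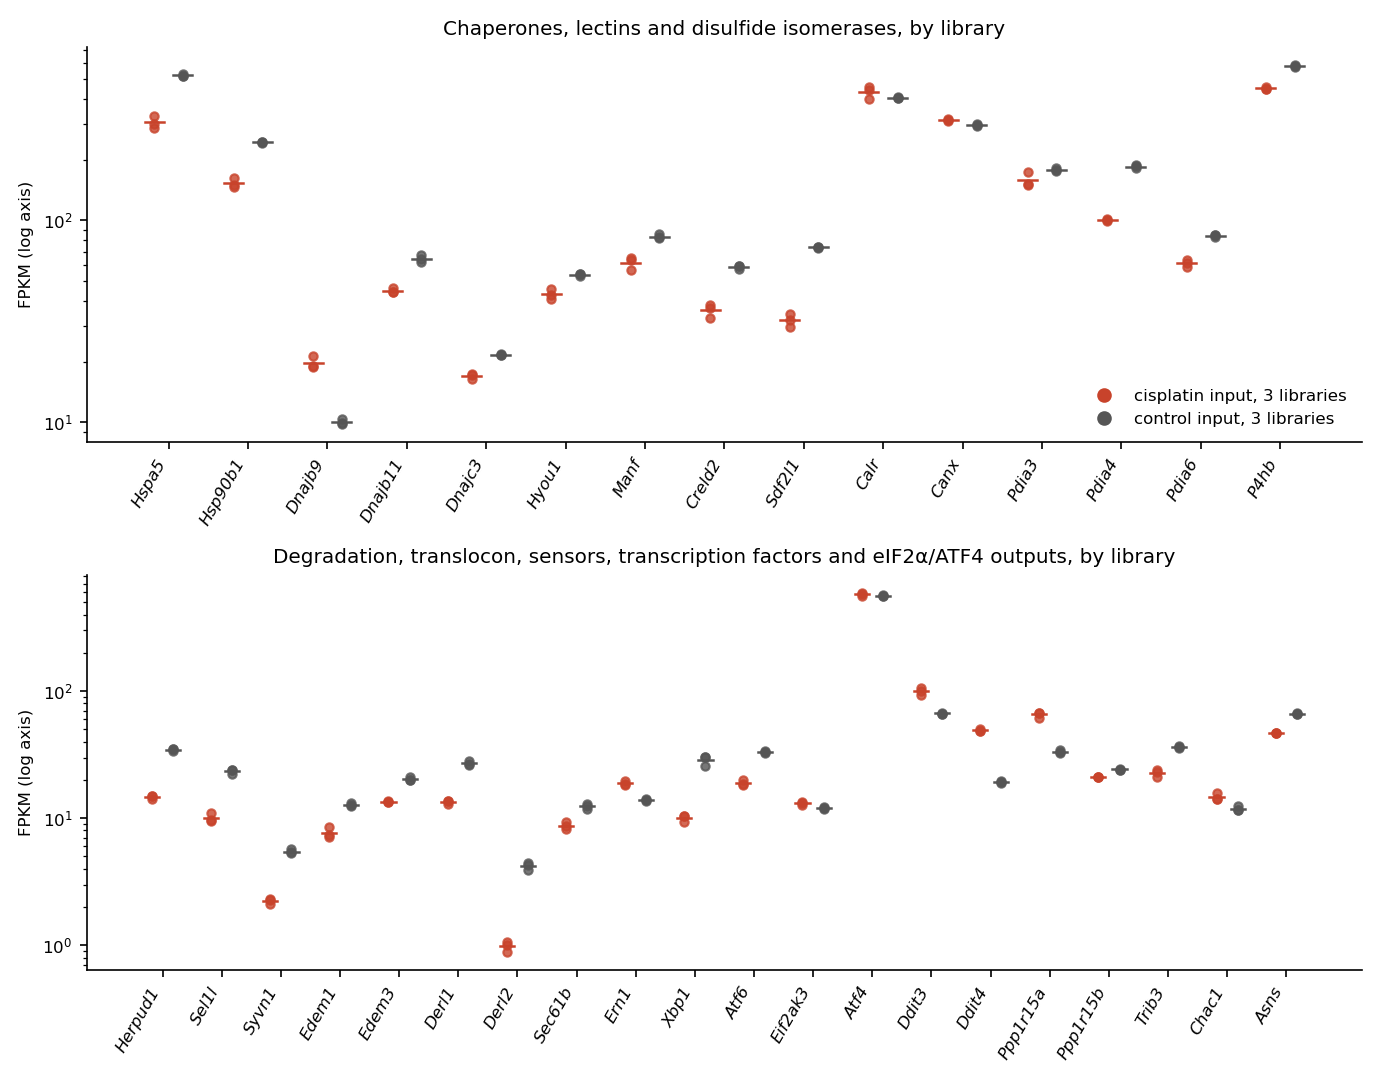
FPKM of each gene in each input library (log y axis), with cisplatin libraries in red to the left of control libraries in grey and short lines at the means of 3. Hspa5 lies between 288 and 329 in cisplatin libraries and between 518 and 531 in control libraries, while the points of Calr and Atf4 overlap between treatments.

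The lectin chaperones and the disulfide isomerases differed among themselves. Calreticulin (Calr) and calnexin (Canx), which bind sugar chains of newly made glycoproteins, did not fall in this fit but were lower with quantile normalization, whereas the 4 isomerases fell. Calr had 443.6, 401 and 460.4 FPKM in cisplatin libraries, against 407, 405 and 403 FPKM in control libraries. The groups overlapped and Calr did not pass (log2 change 0.0997, adjusted p = 0.115), but it did without cisplatin library 2, the lowest of the 3 (0.16, adjusted p = 0.0025), and with quantile normalization it was lower (-0.19, adjusted p = 0.00091).

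Canx had 315, 312 and 317 FPKM in cisplatin libraries, against 300.1, 293.9 and 296 FPKM in control libraries. The values did not overlap, but the difference was small, at 106% of the control mean (log2 change 0.085 ± 0.028 SE, adjusted p = 0.024), it turned negative with libraries rescaled to a common sum (-0.015) and with quantile normalization (-0.13), and it did not pass without cisplatin library 1 or without any 1 of the control libraries (adjusted p = 0.051 to 0.11).

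Pdia4, which encodes the isomerase ERp72, changed most in this group. It had 101.2, 99.9 and 99.6 FPKM in cisplatin libraries, against 187, 185 and 181 FPKM in control libraries. All cisplatin values lay within 2 FPKM of each other and well below the control values (log2 change -0.87 ± 0.028 SE, adjusted p = 2.82e-07). Pdia6, another isomerase, fell by 0.45 on the log2 scale. P4hb, the classical protein disulfide isomerase, averaged 450.9 ± 6.71 FPKM after cisplatin and 583 ± 6.73 FPKM in control (log2 change -0.37). Pdia3, which encodes ERp57, the partner of both lectins, had the smallest fall (log2 change -0.18, adjusted p = 0.027); its cisplatin values of 151, 149 and 174 FPKM spread more than the control values of 182, 175 and 179 FPKM, and it passed without cisplatin library 3 (-0.25, adjusted p = 0.00021) but not with any 1 of the other libraries left out (adjusted p = 0.053 to 0.088).

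Genes for ER-associated degradation, which pulls misfolded proteins out of the ER for the proteasome, and the translocon subunit Sec61b were lower in 8 of 8 cases. Their median log2 change of -0.98 was the lowest of the 5 role groups, and 4 of them fell by at least 2-fold on the log2(FPKM + 1) scale, or 5, with Derl1, by the ratio of mean FPKM. Syvn1, Sel1l and Herpud1 encode the ubiquitin ligase HRD1, its adaptor and a scaffold of the same complex. Herpud1 averaged 42.5% of control after cisplatin (log2 change -1.18, adjusted p = 2.03e-07), the smallest adjusted p among the genes that fell. Sel1l had 9.60, 10.9 and 9.49 FPKM in cisplatin libraries, against 22.1, 23.9 and 24 FPKM in control libraries. Syvn1 was low throughout, with 2.10, 2.29 and 2.28 FPKM in cisplatin libraries, against 5.37, 5.67 and 5.34 FPKM in control libraries. The 3 genes of the complex thus fell to 40.7% to 42.9% of their control means, and no cisplatin value reached a control value.

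The derlins, membrane proteins through which substrates leave the ER, were also lower. Derl2 had 1.01, 0.883 and 1.06 FPKM in cisplatin libraries, against 4.28, 4.43 and 3.94 FPKM in control libraries. This rested on 602 fragments in the cisplatin libraries and 2281 in the control libraries. The cisplatin mean was 23.3% of the control mean, the lowest share of the 35 genes, and the log2 change of -1.40 (adjusted p = 1.25e-06) understates it because 1 FPKM was added before the logarithm. Derl1 averaged 13.4 ± 0.49 FPKM after cisplatin and 27.1 ± 1.04 FPKM in control (log2 change -0.96). Edem1 and Edem3, which encode mannosidase-like proteins that mark glycoproteins for removal, had log2 changes of -0.67 and -0.56. Sec61b, the beta subunit of the translocation channel, had the smallest fall of the 8 (log2 change -0.46, adjusted p = 0.0002).

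Of the 3 sensors and their 2 transcription factors, Xbp1 and Atf6 were lower, Ern1 and Eif2ak3 were higher and Atf4 did not pass. Xbp1 had 9.29, 10.3 and 10.5 FPKM in cisplatin libraries, against 25.7, 30.4 and 30.5 FPKM in control libraries. The groups were far apart, with the cisplatin mean at 34.8% of the control mean, and the log2 change of -1.43 ± 0.077 (SE, adjusted p = 2.07e-06) was the most negative of the 35 genes on this scale, whereas Derl2 was more negative with a pseudocount of 0.1 FPKM (-2.00 for Derl2 and -1.51 for Xbp1) and with voom (-2.18 for Derl2 and -1.58 for Xbp1). Atf6 had 19.9, 18.2 and 18.7 FPKM in cisplatin libraries, against 33, 32.5 and 33.5 FPKM in control libraries. It was lower in every cisplatin library, at 57.5% of the control mean (log2 change -0.77, adjusted p = 2.02e-06).

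Ern1, the kinase and endoribonuclease that splices Xbp1 mRNA, was the only sensor with a clear rise. It had 18.7, 19.7 and 18.3 FPKM in cisplatin libraries, against 13.9, 14.2 and 13.6 FPKM in control libraries. The groups did not overlap (log2 change 0.41 ± 0.042 SE, adjusted p = 5.62e-05). Eif2ak3 had 13.3, 13.4 and 12.6 FPKM in cisplatin libraries, against 11.8, 11.9 and 12.2 FPKM in control libraries. Its values did not overlap, but the log2 change of 0.12 (adjusted p = 0.03) did not pass with libraries rescaled to a common sum (0.024, adjusted p = 0.613) or with any 1 library other than cisplatin library 3 left out (adjusted p = 0.057 to 0.097).

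Atf4 was the most abundant of the 35 genes per length in cisplatin libraries, with 589, 585 and 562 FPKM there, against 559, 565 and 563 FPKM in control libraries. The treatments overlapped, and the log2 change of 0.042 (adjusted p = 0.271) turned negative with a common sum (-0.058), with voom (-0.021) and with quantile normalization (-0.16, adjusted p = 0.0034), while without cisplatin library 3 it passed (0.062, adjusted p = 0.04).

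The 7 genes grouped as outputs of phosphorylated eIF2α and ATF4 did not move as a block: 4 rose and 3 fell. Among those that fell is Ppp1r15b, which encodes a constitutive subunit and was placed here for its role on eIF2α. Ddit4 encodes REDD1, an inhibitor of mTORC1 signalling. It had 50.2, 48.3 and 48.5 FPKM in cisplatin libraries, against 19.4, 18.7 and 19.5 FPKM in control libraries. The treatments were clearly apart, with a ratio of means of 2.55 (log2 change 1.31 ± 0.034 SE, adjusted p = 1.24e-07), the largest rise of the 35 genes. Ddit3 encodes CHOP, a transcription factor linked to cell death under ER stress. It had 105, 100.6 and 92.3 FPKM in cisplatin libraries, against 66.5, 66.3 and 67.4 FPKM in control libraries. Every cisplatin library was higher (log2 change 0.57 ± 0.049 SE, adjusted p = 2.27e-05).

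The 2 regulatory subunits that direct protein phosphatase 1 to eIF2α went in opposite directions. Ppp1r15a encodes GADD34, the stress-inducible subunit. It had 67.3, 67 and 61.9 FPKM in cisplatin libraries, against 32.7, 32.9 and 34.2 FPKM in control libraries. All cisplatin values were above all control values, with a ratio of means of 1.97 (adjusted p = 8.75e-07). Ppp1r15b encodes CReP, the constitutive subunit, and had 20.9, 21 and 21 FPKM in cisplatin libraries, against 24.5, 24.1 and 23.9 FPKM in control libraries. It was lower in each cisplatin library, though by little (log2 change -0.19 ± 0.031 SE, adjusted p = 0.00071).

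Chac1, an enzyme that degrades glutathione, averaged 14.6 ± 0.904 FPKM after cisplatin and 11.9 ± 0.55 FPKM in control (log2 change 0.28, adjusted p = 0.0025). Trib3, a pseudokinase that binds ATF4 and CHOP, had 22.9, 23.8 and 21 FPKM in cisplatin libraries, against 36.3, 36.7 and 35.5 FPKM in control libraries. Asns, asparagine synthetase, had 47.1, 46.8 and 46.7 FPKM in cisplatin libraries, against 65.4, 67.3 and 65.9 FPKM in control libraries. Trib3 and Asns are textbook ATF4 targets, and both were lower without overlap, at 62.5% and 70.8% of their control means (adjusted p = 1.06e-05 and 2.84e-06). Targets of 1 factor thus lay on both sides of 0 in the same libraries.

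The promoters of the set were searched for 4 motifs on both strands, in windows of RefSeq from 250 bases before to 50 bases after the start of a gene (GRCm38.p6). Windows were found for 30 of the 35 genes and for none of Hyou1, Manf, Derl1, Atf6 and Ppp1r15b. The ER stress response element (ERSE) is CCAAT, 9 bases of any kind, and CCACG, and is bound by NF-Y together with ATF6. It was present in 8 of the 22 ATF6/XBP1 genes with a window and in 0 of the 8 ATF4 genes, against 0.119% of 32851 promoter windows. The arm was made from known biology and this motif is known for ATF6, so these shares are a description and were not tested. The sequences below show these elements with 20 bases on each side, on the strand of the gene. Capitals mark the element, which reads as its reverse complement in Creld2, Calr and the second copy of Hsp90b1.
Hspa5, chr2:34772005-34772063, plus strand: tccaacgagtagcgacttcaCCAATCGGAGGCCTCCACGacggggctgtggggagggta
Hsp90b1, chr10:86705513-86705676, minus strand: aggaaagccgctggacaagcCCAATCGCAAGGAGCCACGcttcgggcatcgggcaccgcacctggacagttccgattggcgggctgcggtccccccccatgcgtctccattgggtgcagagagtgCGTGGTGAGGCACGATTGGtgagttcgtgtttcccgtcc
Dnajc3, chr14:118937807-118937865, plus strand: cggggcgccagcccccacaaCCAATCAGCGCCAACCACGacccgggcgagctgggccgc
Creld2, chr15:88819500-88819558, plus strand: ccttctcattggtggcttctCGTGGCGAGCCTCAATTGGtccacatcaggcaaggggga
Calr, chr8:84847055-84847113, minus strand: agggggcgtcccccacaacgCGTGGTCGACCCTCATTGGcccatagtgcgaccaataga
Canx, chr11:50325780-50325838, minus strand: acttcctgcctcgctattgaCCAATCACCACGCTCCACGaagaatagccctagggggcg
Pdia6, chr12:17266471-17266529, plus strand: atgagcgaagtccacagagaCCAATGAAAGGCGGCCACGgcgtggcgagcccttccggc
Syvn1, chr19:6046512-6046570, plus strand: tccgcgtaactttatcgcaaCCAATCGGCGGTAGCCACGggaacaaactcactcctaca

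Of the 8 genes with an ERSE, Hspa5, Hsp90b1, Dnajc3, Creld2, Pdia6 and Syvn1 fell, Canx rose by 0.085 (negative under both rescalings named above) and Calr did not pass. In the ATF6/XBP1 arm as a whole 22 of 26 genes fell, and 41.1% of all genes tested did. A link between the element and the fall was not tested. The element was found in 13 of the 10404 windows of tested genes (0.125%). The 5 genes outside the set were chosen by sequence after their values were known. They were Alg12 (log2 change -1.30), Gm6566 (-1.50), Pan2 (-0.88), Hnrnpa3 (0.22) and Zfp57 (-0.15, not past the test). Levels were low for Gm6566, at 0.0186 ± 0.0323 FPKM after cisplatin and 1.92 ± 0.522 FPKM in control. Pan2 was also low, at 0.718 ± 0.0642 FPKM after cisplatin and 2.15 ± 0.0934 FPKM in control. The element closest to the start of its gene was that of Syvn1, 44 to 26 bases before it, and the farthest was the first copy of Hsp90b1, 212 to 194 bases before it.

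A second motif, TGATGCAA, the composite element read by C/EBP and ATF factors, was present in Herpud1 and Chac1, against 0.895% of all windows. These 2 windows were the only ones of the set with this motif, and both are shown. Their genes moved in opposite directions, Herpud1 down and Chac1 up. Capitals mark the match, on the minus strand relative to the gene in both.
Herpud1, chr8:94386297-94386344, plus strand: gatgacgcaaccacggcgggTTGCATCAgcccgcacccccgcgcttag
Chac1, chr2:119351029-119351076, plus strand: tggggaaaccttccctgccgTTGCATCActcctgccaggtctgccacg

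The UPRE core TGACGTGG, bound by XBP1 and ATF6, was in 0 member windows and 0.676% of all windows, and ATTGCATCA, which overlaps the reverse complement of TGATGCAA, was in 0 member windows and 0.192% of all windows. A match describes letters and not a used site, and the absence of a match covers only these letters in these windows.

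Beyond the set, 181 other genes of the same pathways were listed by role; 179 were in the table and 170 were tested, of which 54 rose, 86 fell and 30 did not pass (median log2 change -0.11). Over all genes tested, 40.1% rose and 41.1% fell, and of these lists the other ATF4 targets lay nearest to those shares. Folding and redox genes rose in 8 and fell in 19 of 31 cases (median -0.26), and genes of translocation and N-glycosylation rose in 6 and fell in 20 of 31 (median -0.26). Other UPR regulators rose in 6 and fell in 17 of 26 cases (median -0.48), and other degradation genes rose in 7 and fell in 12 of 23 (median -0.11). The eIF2α kinases with the subunits of eIF2 and eIF2B leaned the other way, with 10 of 16 higher and 3 lower (median 0.27). The 43 other ATF4 targets were divided, with 17 higher, 15 lower and a median of -0.011.

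Named by the smallest adjusted p in each list, the genes of folding that changed included Sil1, a nucleotide exchange factor of BiP, at 0.146, 0.077 and 0.107 FPKM in cisplatin libraries, against 16.2, 15.5 and 16.4 FPKM in control libraries. This was 14 fragments in all cisplatin libraries and 1825 in all control libraries, and the cause was not tested. Selenok (log2 change -1.44), a selenoprotein of the ER membrane, also fell, while the glucosidase subunit Prkcsh (0.57) and the prolyl isomerase Fkbp11 (0.82) rose. In translocation and glycosylation, the signal peptidase subunit Sec11c averaged 0.208 ± 0.071 FPKM after cisplatin and 7.73 ± 0.373 FPKM in control, and the oligosaccharyltransferase subunit Ostc had a log2 change of -0.92, whereas the mannosyltransferase Alg2 (0.80) and the oligosaccharyltransferase subunit Dad1 (0.83) rose.

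Among other degradation genes, the lectin Erlec1 averaged 21.8% of control after cisplatin, and the ubiquitin-conjugating enzyme Ube2j1 had a log2 change of -1.28, whereas Nploc4 (0.65), a cofactor of the segregase p97, and the mannosidase Man1b1 (0.58) rose. Of the regulators, the antioxidant factor Nfe2l2 (0.94) and the KDEL receptor Kdelr3 (1.09) rose, and the calcium channel Itpr1 (-1.46) and the coat subunit Sec24d (-1.33) fell. Kdelr3 was low, at 248 fragments in cisplatin libraries and 51 in control libraries. Both Eif2s1, which encodes eIF2α itself, and Eif2s3x, a further eIF2 subunit, rose, by 1.05 and 0.84 on the log2 scale, while the kinase Eif2ak4 (-0.66) and the exchange factor subunit Eif2b3 (-0.72) fell. Among ATF4 targets, Atf3 averaged 10.1 times its control mean after cisplatin and Nupr1 rose (0.75), while the amino acid transporter Slc7a5 (-0.79) and the lipoprotein receptor Vldlr, at 46 fragments in cisplatin libraries and 1132 in control libraries, fell.

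**Figure D3:**
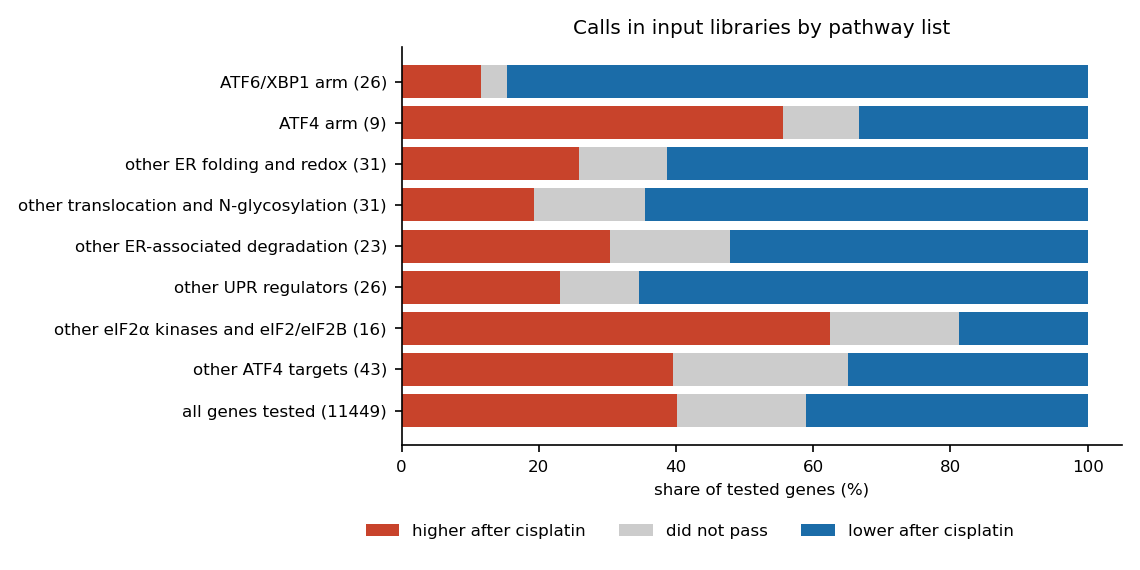
Share of tested genes (x axis, percent) that rose, did not pass or fell after cisplatin in each arm, in 6 further pathway lists and in all 11449 genes tested, with the number tested in parentheses. In the ATF6/XBP1 arm 22 of 26 genes fell, and the eIF2α kinase and eIF2/eIF2B list, with 10 of 16 higher, has the largest share of rises.

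The ac4C peaks of the set came from the authors' deposited table, which gives 1 comparison between treatments for each peak and no value per library. Whether its log2 difference runs from control to cisplatin or the other way is not stated, so signs are given as deposited and say only which peaks lie on the same side. The table held 61 peaks in 26 of the 35 genes, against 65.6% of all tested genes with a peak. Dnajb9, Manf, Sdf2l1, Sel1l, Sec61b, Xbp1, Ddit3, Ddit4 and Trib3 had none, so neither Xbp1 nor Ddit4, the gene with the largest rise in input RNA, had an ac4C peak to compare. Of the 61 peaks, 29 were annotated to coding sequence, 20 to the 3′ UTR, 1 to the 5′ UTR and 11 to other exons.

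By the authors' adjusted p of 0.05, 42 of the 61 peaks (68.9%) differed between treatments in the authors' deposited table, against 46.2% of all 19049 peaks. Of these, 33 lay above 0 and 9 below 0, where 36.5% of all peaks were differing and above 0 and 9.62% were differing and below 0. The share of differing peaks that lay above 0, 78.6% in the set and 79.2% over all peaks, was thus near the background. At least 1 differing peak was found in 24 of the 26 genes, the exceptions being Derl2 and Eif2ak3, against 56.1% of all genes with a peak. The share of differing peaks moved with the level of the RNA: in genes with a mean of at least 100 FPKM it was 82.6% of 23 member peaks and 84.8% of 890 peaks of all tested genes, and from 10 to under 100 FPKM it was 61.8% of 34 and 60.5% of 9004. Under 10 FPKM it was 50% of only 4 member peaks and 29.8% of 7505. In the 2 upper level classes, which hold all but those 4 peaks, the set stood near the other genes. The ATF6/XBP1 arm had 25 differing peaks above 0 and 8 below (75.8% above), and the ATF4 arm had 8 above and 1 below (88.9% above), shares that lie around the same background.

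Within single transcripts, peaks could lie on both sides. In the authors' deposited table, Hspa5 had a coding peak at chr2:34773832-34773981 with a log2 difference of 3.74 (log10 adjusted p -29.4) and another at chr2:34775221-34775718 with one of -1.45 (log10 adjusted p -166), on mm10. The 2 peaks had about the same enrichment of IP over input, 1.56-fold and 1.59-fold. Pdia3 was the other such gene, with a coding peak at 3.23, another coding peak at -0.43 and a peak in its 3′ UTR at -1.57 in the authors' deposited table. These were 2 of the 12 genes with at least 2 differing peaks, against 38.1% of all such genes.

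Of the other chaperones and isomerases, Hsp90b1 had 4 exon peaks in the authors' deposited table, all above 0, from 0.855 to 2.42. Hyou1 had 2 at 4.17 and 5.50, Pdia4 had 2 at 2.79 and 5.06, and Pdia6 had 1 at 4.80. In the authors' deposited table, Calr had differing peaks below 0 only, at -0.15 and -0.42, as did P4hb, at -0.68 and -1.09. The P4hb peak at -1.09 overlapped another that did not differ (-0.127). The 3 differing peaks of Canx lay above 0, from 0.61 to 3.28. Enrichment over input was low for some of these peaks on both sides, at 1.17-fold and 1.1-fold for the 2 differing Calr peaks. It was 1.31-fold for the Pdia4 peak at 5.06 and 1.2-fold for the Canx peak at 2.15. Others were enriched more, at 3.94-fold for the Pdia6 peak, 4.01-fold for the Canx peak at 3.28 and 3.59-fold for the Hyou1 peak at 4.17. The 7 differing peaks of the degradation genes were all above 0, the side of 79.2% of differing peaks in all genes. The largest were those of Herpud1 at 4.11 and Syvn1 at 3.58, the latter close to the threshold (log10 adjusted p -1.49).

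Among sensors and outputs, the authors' deposited table gave Ppp1r15a a coding peak at chr7:45523871-45524680 with a log2 difference of 3.02 (log10 adjusted p -73.6) and the only 5′ UTR peak of the set, at chr7:45525579-45525879, with one of 5.26. Ppp1r15b had 6 peaks, of which 4 differed, from 1.77 to 5.53. The differing peaks of the GADD34 and CReP genes thus all lay above 0, the side of 79.2% of differing peaks in all genes. Their input RNA moved in opposite directions. Asns (-3.65) and Atf6 (-2.64, in its 3′ UTR) had the most negative differing peaks of the set in the authors' deposited table. Ern1 had one at 2.75 and a second peak at -2.15 that just missed the threshold (log10 adjusted p -1.29), and the single peak of Atf4, in its coding sequence, lay near 0 (0.16, log10 adjusted p -2.38).

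Set against input RNA by the peak with the smallest adjusted p of each gene, the 24 genes with a differing peak fell into all combinations but 1: 13 had lower input RNA and a peak above 0, 5 had lower RNA and a peak below 0, 4 had higher RNA and a peak above 0, and Atf4 and Calr, not called in input RNA, had a peak on each side. Genes with lower RNA and a peak below 0 were Hspa5, Pdia3, P4hb, Atf6 and Asns.

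**Figure D4:**
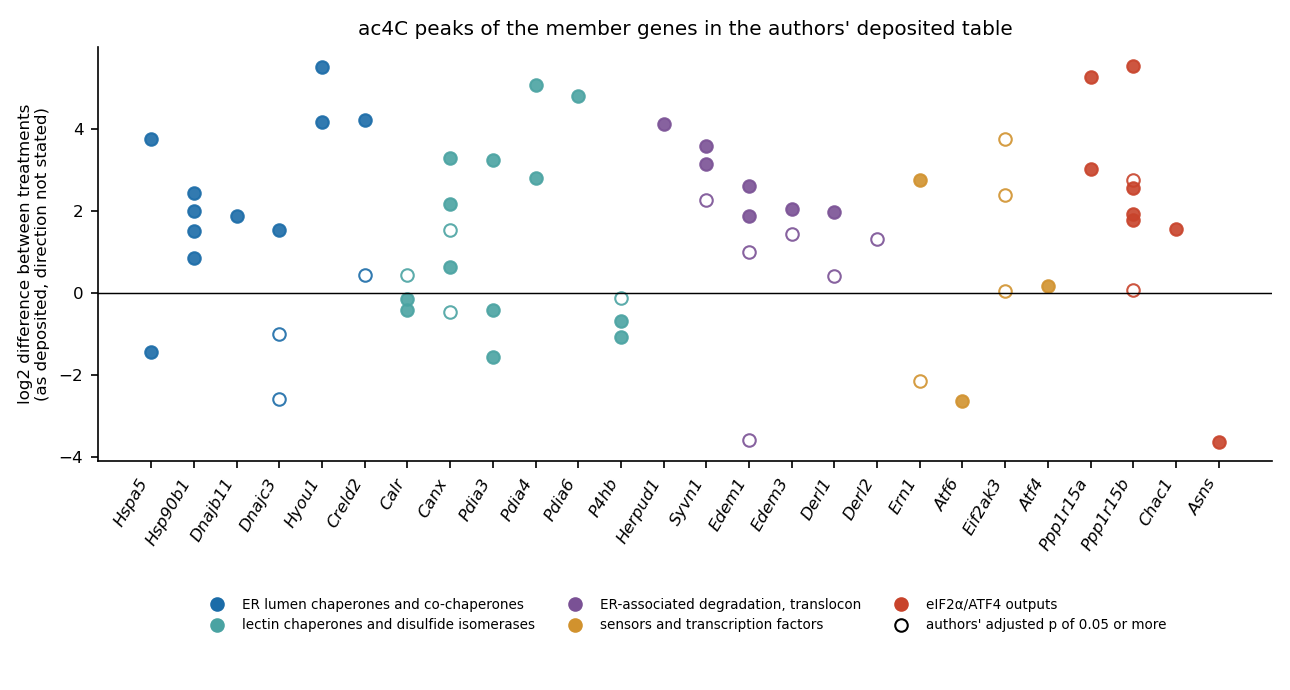
Log2 difference between treatments of each ac4C peak (y axis, as deposited by the authors, direction not stated) for the 26 genes with a peak, coloured by role, with filled points past the authors' adjusted p of 0.05. Of the 42 filled points 33 lie above 0, and Hspa5 and Pdia3 have filled points on both sides.

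Enrichment of IP over input, the authors' value per peak, ranged from 1.1 to 27.0 over the 61 peaks with a median of 3.53, against 7.05 over all peaks. The 23 peaks of the 8 genes with a mean of at least 100 FPKM had a median of 1.78 and the 38 peaks of the 18 other genes had one of 5.53. Among all tested genes the peaks at 100 FPKM or more had a median of 2.88. Across the 61 peaks, Spearman's rho between level and enrichment was -0.649, and across 17399 peaks of 7515 tested genes it was -0.304; input reads enter both measures and peaks of 1 gene share its level, so this is a description. The peak with the highest enrichment belonged to Syvn1 (27.0), at 2.23 ± 0.105 FPKM after cisplatin and 5.46 ± 0.184 FPKM in control. Calr was an exception among abundant genes, with a peak in its 3′ UTR at chr8:84842150-84842450 enriched 11.4-fold that did not differ past the threshold (log2 difference 0.42) in the authors' deposited table.

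**Figure D5:**
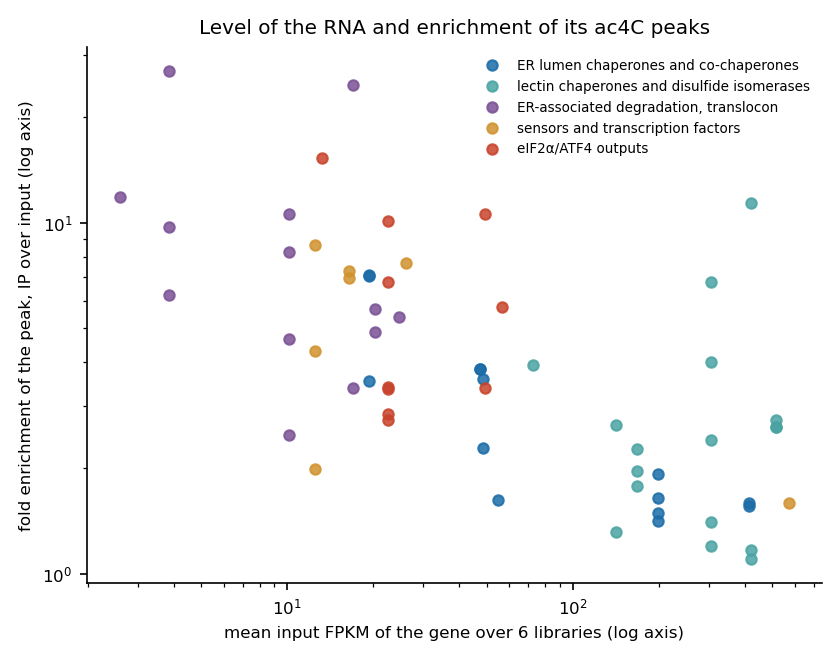
Fold enrichment of IP over input of each of the 61 member peaks (log y axis, the authors' values) against the mean input FPKM of its gene over 6 libraries (log x axis), coloured by role. Peaks of genes with at least 100 FPKM lie between 1.1 and 11.4, and those of the other genes reach 27.0.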

How the data were processed

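ID8 RNA was depleted of ribosomal RNA, fragmented, split into input and anti-ac4C fractions and made into stranded libraries, per the labels' protocols. Tools named in the submitters' processing notes are HISAT2, HOMER, fastp and FastQC, with build mm10. Neither the peak caller nor the counting tool, its strand setting or its handling of copies and overlapping genes is given in the sources used here. The deposited expression table holds FPKM made by the authors for 6 input libraries, with the authors' log2 fold change and p-values. The deposited peak table holds, per the file headers, the authors' fold enrichment (a ratio), log2 difference and log10 p of each peak. No column of per-sample values was left unused.

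Fragments per gene were recovered as whole multiples of the smallest FPKM steps, within a tolerance of 0.0001, for 14852 of 14852 genes; totals were 24290219, 30159427 and 22201704 in cisplatin and 21583201, 21900044 and 20682920 in control libraries 1, 2 and 3. Chi-square per gene between replicates was 7.5 to 15.4 in cisplatin and 2.33 to 3.08 in control, so no library was a repeat. The 11449 genes that reached 1 FPKM in at least 3 of the 6 libraries were fitted as log2(FPKM + 1), cisplatin minus control, with limma (version 3.58.1, trended eBayes, R 4.3.3) and Benjamini-Hochberg adjustment over all of them; all adjusted p-values of input RNA come from it, and the script was tested on simulated data. A peak was taken as differing where the authors' adjusted p was under 0.05, and coordinates were turned to counting from 1. Counts, motifs and figures used pandas 2.3.3, matplotlib 3.10.9, numpy 2.4.6 and scipy 1.17.1 in Python 3.11.15.

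All 35 genes are named; from each of 6 further lists the 2 higher and 2 lower genes with the smallest adjusted p are. The genes, lists and motifs were chosen with earlier results of these data known. Alternatives were the pseudocount, the filter, rescaling to a common sum, quantile normalization, voom on recovered reads, a replicate block, leaving out each library, the authors' values, and stricter peak rules.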

Additional observations from a re-analysis of the deposited data

How the results depend on the processing

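Calls of 30 of the 35 genes kept direction and side of the threshold under each alternative in which they were tested (Derl2 was not tested with the filter at 5 FPKM); the exceptions were Calr, Canx, Pdia3, Eif2ak3 and Atf4. Log2 changes turned negative with a common sum for Calr (-0.000109), Canx (-0.015) and Atf4 (-0.058), with quantile normalization for Calr (-0.185), Canx (-0.134) and Atf4 (-0.164), and with voom for Atf4 (-0.0211); the cause was not tested. A filter at 5 FPKM called 5934 genes in place of 9303, since fewer were tested. The median of the ATF6/XBP1 arm was -0.558 with that filter, -0.708 with a common sum, -0.686 with quantile normalization and -0.696 with voom, and that of the ATF4 arm was 0.0240 with a common sum and 0.0652 with voom. Leaving out 1 library at a time gave 7741 to 8666 genes called, 6 to 9 members higher and 24 to 25 lower, and medians of -0.638 to -0.590 (ATF6/XBP1) and 0.101 to 0.141 (ATF4). With only the peak of highest enrichment in each gene, 18 member peaks passed in place of 42, since fewer were counted.

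Same-numbered libraries deviated with correlations of 0.0975, -0.116 and 0.0428, so the numbers were not taken as pairs. A fit with the replicate number as a block called 9276 genes, 6 members higher and 25 lower; Canx (adjusted p = 0.0544) and Eif2ak3 (adjusted p = 0.0628) did not pass in it. In the authors' deposited table Calr passed (adjusted p = 0.0374) and Eif2ak3 did not (adjusted p = 0.0509). With 3 libraries a group and no peak value per library, the spread of ac4C between replicates could not be described.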
